A study of Mus musculus with 4 samples.

Results

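The 47 genes described here were listed as markers of the suprabasal and cornified layers of interfollicular epidermis, the skin surface between hair follicles. They were taken by name from the 55536 genes of a count table of mouse bulge cells, and all 47 were found. RNA sequencing covered 4 skin samples on a C57BL/6 background, each of cells from the bulge, where the stem cells of the hair follicle reside. In 2 knockout samples, an inducible Cre recombinase under the endothelial Cdh5 promoter (Cdh5CreERT2) deleted floxed Alk1, a receptor of BMP ligands encoded by Acvrl1. The 2 control samples came from Cre-negative littermates, whose Alk1 alleles are not further described in the labels. All mice, controls included, received intraperitoneal tamoxifen at 100 µg per g of body weight on postnatal day 17 and were sampled on postnatal day 20. The titles number the samples 1 and 2 in each group. The labels used here do not say whether a sample pooled several mice. The p-values rest on the spread between these samples, moderated over all tested genes, which may not be that between single mice. The study asked how endothelial Alk1 affects the timing of follicle stem cell activation. The differentiation genes bear on it as genes listed for another part of the epidermis, measured in the same libraries. Which cells their reads came from was not tested.

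Interfollicular keratinocytes leave the basal layer, exchange the keratins Krt5 and Krt14 for Krt1 and Krt10, and move outward through the spinous and granular layers. In the granular layer they make keratohyalin proteins such as filaggrin and loricrin, which transglutaminases link into the cornified envelope. Lamellar bodies release lipids around the envelope, and proteases later release the dead cells at the surface. Bulge cells lie in the outer root sheath of the follicle, are marked by Krt15 and Cd34, and keep the basal keratins.

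Library totals ran from 16326906 counts in control 1 to 29130974 in control 2. Levels are given as CPM, counts per 1000000 counts of the library size after TMM scaling. Acvrl1, targeted in endothelium rather than in the sampled cells, stood at 21.6 CPM in control 1, 24.3 in control 2, 17.9 in knockout 1 and 23.1 in knockout 2, which does not check the labels. The labelled cell type was checked on 10 bulge markers, all of which were measured, with a summed level of 37105 to 45258 CPM per library. Krt15 measured 29062 and 34366 CPM in controls 1 and 2 and 35985 and 34755 CPM in knockouts 1 and 2. Markers of blood endothelium summed to 5.69 to 20.3 CPM and those of the hair shaft to at most 16.3 CPM, with Krt33b and Krt81 at 0 in all 4 libraries. The sums were 136 to 233 CPM for fibroblast, 85.6 to 133 CPM for melanocyte and 36.5 to 48.1 CPM for immune markers. Most of each sum lay in few genes. Col1a1 measured 75.2 to 148 CPM, Col1a2 43.7 to 80.8, Mitf 71.5 to 117 and Cd74 25.4 to 31.3. Dct reached 11.4 CPM and Cd3g 5.88 CPM, and the remaining markers of these lists stayed lower.

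The differentiation genes made up 2.36% of all counts in control 1 (95% exact binomial interval 2.35% to 2.37%) and 0.973% in control 2 (0.970% to 0.977%). In knockout 1 they made up 1.60% (1.59% to 1.61%), and in knockout 2 0.844% (0.841% to 0.848%). Intervals treat reads as independent and leave out the spread between samples. Reads without molecular identifiers are not independent molecules, so the intervals may be narrower than the counting error itself. The share was 1.67% ± 0.981 in controls and 1.22% ± 0.534 in knockouts (SD, n = 2 each), so the groups overlapped and differed by less than their spread. The share in control 1 was 2.43 times that in control 2, and in knockout 1 it was 1.89 times that in knockout 2. It pooled genes that varied unequally. The keratins among them summed to 14048 and 4338 CPM in the controls, with 8932 and 3950 CPM in the knockouts. Secreted and calcium-binding members summed to 5346 and 4104 CPM in the controls, with 5172 and 3485 CPM in the knockouts. In bulk RNA, the number of cells that hold these transcripts, their kind and their RNA per cell cannot be told apart.

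The order of the libraries was shared by most of the genes. A low-count filter left 46 of the 47 genes for testing. Of these, 42 were highest in control 1 (24.9% of all 14259 tested genes were highest there). In 40 of them control 1 came first and knockout 1 came next. The remaining places were held by control 2 and then knockout 2 for 23 genes, and by knockout 2 and then control 2 for 17. Number 1 was higher than number 2 in both groups for 41 of 46 genes (23.8% of all tested genes). The labels do not say whether a number marks a shared litter or day.

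**Figure D1:**
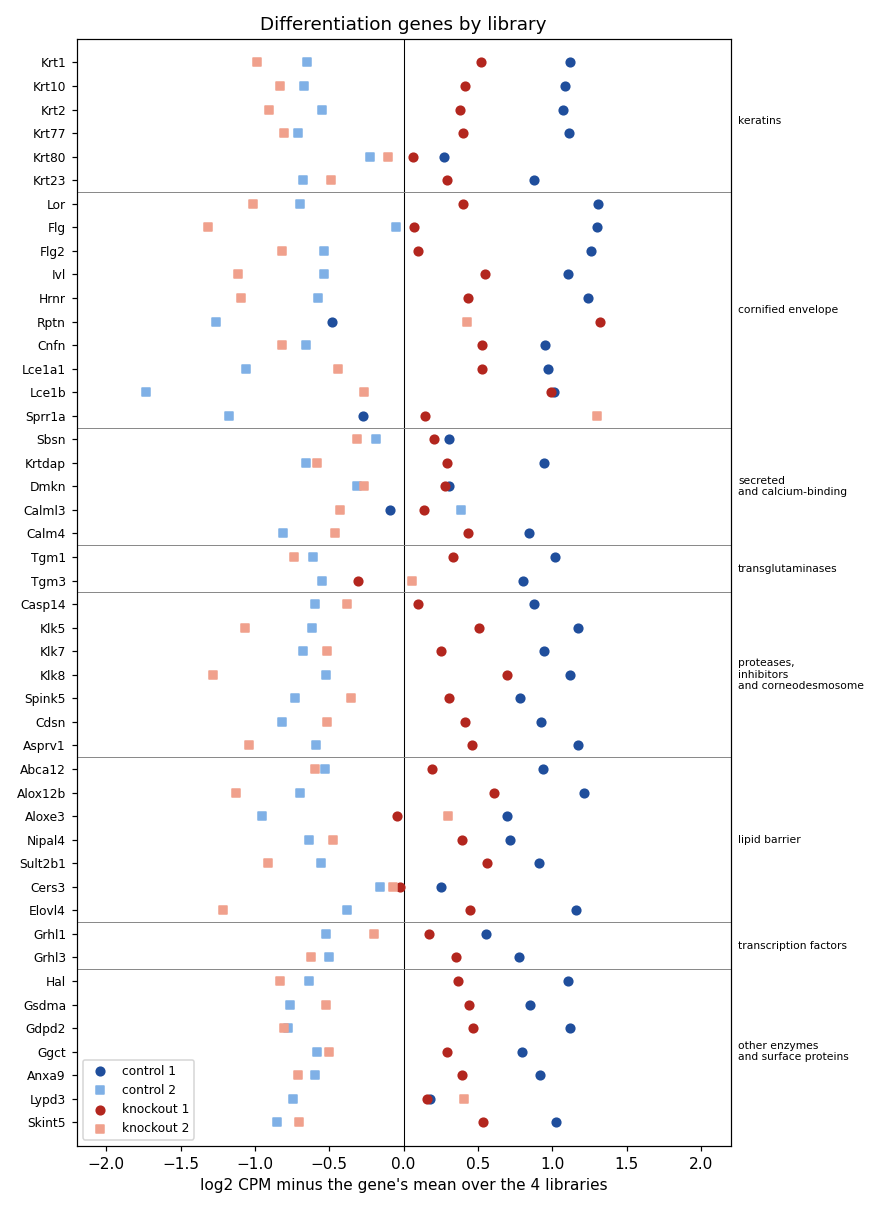
Log2 CPM of the 46 tested differentiation genes in each library (x axis, minus the gene's mean over the 4 libraries; circles are libraries numbered 1, squares those numbered 2, blue controls and red knockouts), grouped by role. In 42 genes the dark blue circle of control 1 lies farthest right, and Rptn, Sprr1a, Calml3 and Lypd3 are the exceptions.

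With 2 libraries per group, the comparison of knockout with control found no member changed. In edgeR's quasi-likelihood test 0 of 46 passed an adjusted p of 0.05, against 0.00701% of all tested genes called higher and 0% called lower. The smallest adjusted p among them was 0.43 (edgeR). The log2 fold change was below 0 in 40 of 46, with a median of -0.36. Over all tested genes 52.5% were below 0 and the median was -0.021. The SE exceeded the log2 fold change in size for 36 of the 46. At an unadjusted p under 0.05, 2 members were higher (4.8% of all tested genes) and 0 were lower (5.94%). With the replicate number as a block, 18 of 46 members had an unadjusted edgeR p under 0.05, against 1589 of all 14259 tested genes. Without the block these counts were 2 and 1532. In the block fit 39 of 46 members were below 0. The labels do not give the numbers as a pairing. Both knockouts lay below both controls for 0 members (23.6% of all tested genes) and above both for 2 members (21.3%). With limma-voom 0 members were called, and with DESeq2 also 0 (0.161% of all genes higher and 0.426% lower). The count was 0 with at least 50 counts in 2 libraries (0.00856% higher) and with the exon length and GC trend removed (0.014% higher). Without a count filter Sprr1a was called higher (0.678% of all genes) and Flg lower (1.11%). With the replicate number as a block Elovl4 was called lower (0.568% of all genes, and 0.175% higher).

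The direction of the median depended on which libraries were compared. Knockout 1 lay below control 1 by a median log2 difference of -0.54, in 43 of 46 genes. Knockout 2 lay below control 1 by a median of -1.49, also in 43. Against control 2, however, knockout 1 was higher by a median of 1.01 and lower in 1 gene. Knockout 2 differed from control 2 by a median of -0.048 and was lower in 24 of 46. These 4 comparisons share libraries. Without control 1 the fitted median was 0.56, with 2 of 46 genes below 0, and without knockout 2 it was 0.024.

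**Figure D2:**
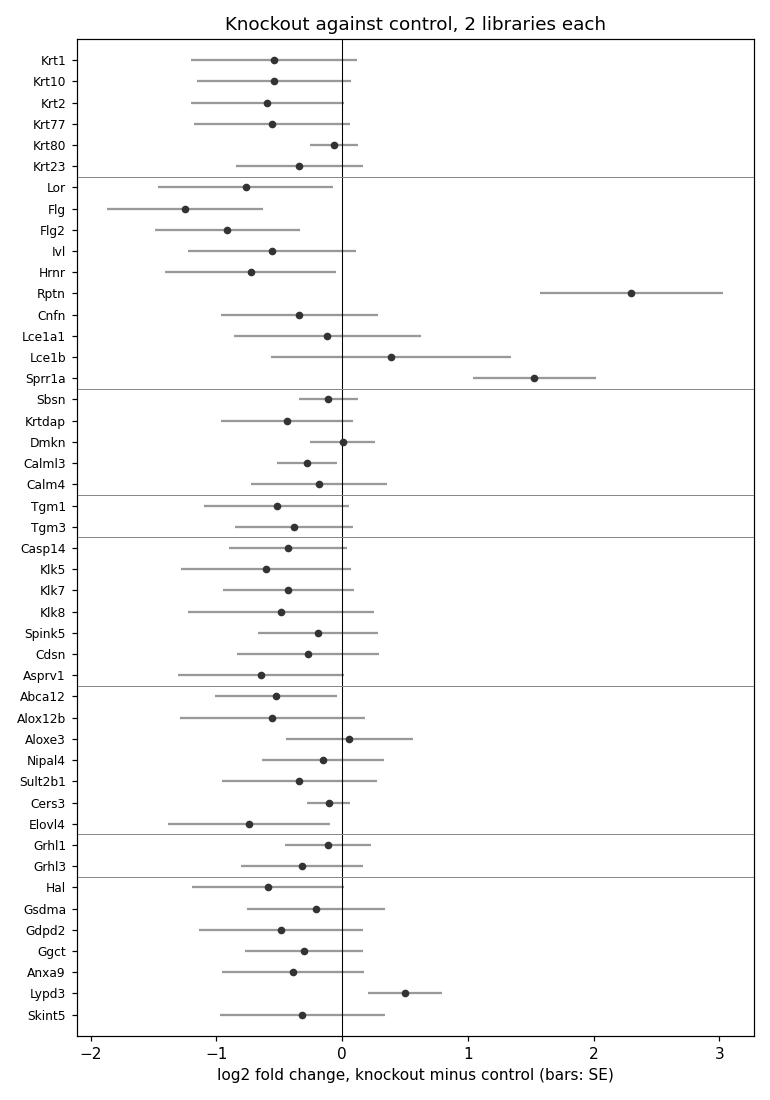
Log2 fold change of knockout against control (x axis; points are edgeR estimates from 2 libraries per group, bars are SE) for the 46 tested genes in order of role. For 36 of 46 genes the bar crosses 0, and Rptn and Sprr1a lie farthest to the right at 2.30 and 1.53.

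The spread between the 2 libraries of a group was larger than that between the group means. With a prior count of 2 on the log2 scale, 38 of 46 members were at least 2-fold higher in control 1 than in control 2 (4.66% of all tested genes). For knockout 1 against knockout 2 the number was 21 (3.48%). The median fold was 3.08 between controls, with a range of 0.718 to 8.62, and 1.99 between knockouts, with a range of 0.444 to 4.0. In 33 genes the fold between controls lay between 2.5 and 4. These 2 differences share no library. Across the 46 genes, which are not independent replicates, they had a Pearson correlation of 0.53 and a Spearman correlation of 0.64. Across all 14259 tested genes the Pearson correlation was 0.12 and the Spearman correlation 0.00012.

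**Figure D3:**
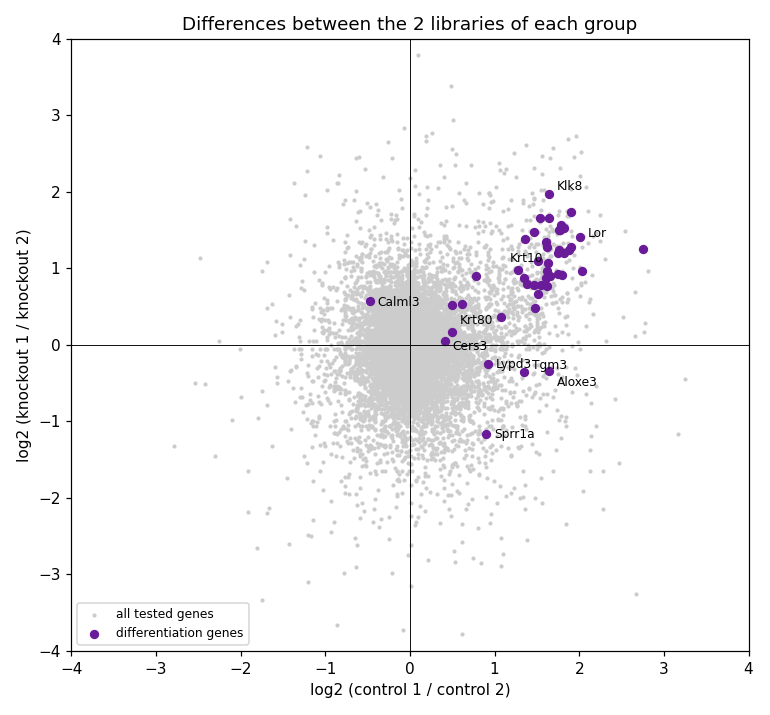
Log2 ratio of control 1 to control 2 (x axis) against that of knockout 1 to knockout 2 (y axis) for the differentiation genes (purple) and all tested genes (grey; 12 genes lie beyond the axes). The purple points gather in the upper right, apart from Calml3 on the left and Sprr1a, Tgm3, Aloxe3 and Lypd3 below 0 on the y axis.

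Promoter sequences are shown for 3 abundant genes that followed the common library order (Krt10, Krt77 and Lor) and 2 that did not (Sprr1a and Lypd3), chosen after their values were seen. Sequences are from RefSeq on GRCm38 and read 5′ to 3′ on the strand of the gene up to the base before the annotated start. They span chr11:99389365-99389614 (minus) for Krt10, chr15:101869706-101869955 (minus) for Krt77 and chr3:92083143-92083392 (minus) for Lor. For Sprr1a the window is chr3:92485896-92486131 (minus), and for Lypd3 chr7:24636320-24636549 (plus). Capitals mark TATAAA and TGANTCA, the AP-1 motif, in which N is any base, on either strand.
Krt10: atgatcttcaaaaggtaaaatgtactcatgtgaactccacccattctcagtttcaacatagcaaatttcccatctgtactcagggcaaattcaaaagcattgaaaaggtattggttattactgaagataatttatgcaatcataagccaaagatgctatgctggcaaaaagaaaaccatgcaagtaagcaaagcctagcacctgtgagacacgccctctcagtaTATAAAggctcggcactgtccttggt
Krt77: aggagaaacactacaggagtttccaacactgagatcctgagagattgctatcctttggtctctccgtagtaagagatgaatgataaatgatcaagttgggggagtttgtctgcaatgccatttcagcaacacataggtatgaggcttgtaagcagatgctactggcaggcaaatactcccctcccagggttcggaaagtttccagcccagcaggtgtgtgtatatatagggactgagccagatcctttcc
Lor: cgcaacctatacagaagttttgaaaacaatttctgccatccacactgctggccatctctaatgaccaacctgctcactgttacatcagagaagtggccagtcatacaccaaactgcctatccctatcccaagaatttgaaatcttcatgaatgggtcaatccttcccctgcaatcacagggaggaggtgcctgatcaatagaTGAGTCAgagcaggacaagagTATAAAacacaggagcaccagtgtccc
Sprr1a: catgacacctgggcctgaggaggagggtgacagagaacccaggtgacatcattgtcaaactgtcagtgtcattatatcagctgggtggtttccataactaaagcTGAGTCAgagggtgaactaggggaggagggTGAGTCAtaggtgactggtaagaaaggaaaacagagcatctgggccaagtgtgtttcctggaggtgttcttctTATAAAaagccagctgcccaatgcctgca
Lypd3: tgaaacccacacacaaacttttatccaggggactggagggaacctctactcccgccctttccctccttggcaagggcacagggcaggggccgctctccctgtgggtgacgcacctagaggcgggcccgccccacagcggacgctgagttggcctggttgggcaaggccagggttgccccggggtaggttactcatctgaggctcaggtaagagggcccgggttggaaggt
The TATAAA motif began 26 bases before the start in Krt10, 27 in Lor and 29 in Sprr1a, and TGANTCA began 48 bases before the start in Lor and 102 and 132 in Sprr1a. Neither motif was in the windows of Krt77 and Lypd3. Promoter windows were matched for 41 of the 47 genes. Over the 250 bases before the start, TATAAA was present in 12 of 41 (29.3%), against 12.4% of all 32851 windows. TGANTCA was present in 11 of 41 (26.8%), against 6.75% of all windows. AACNGGTT, the motif of grainyhead-like factors, was present in 1 of 41 (2.44%, in Rptn) and in 1.79% of all windows. These are matches of letters on either strand and not shown to be sites, and they occur in both kinds of gene shown.

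Suprabasal keratins were the most abundant group. Krt10, the type I keratin that pairs with Krt1 in spinous cells, lies on chromosome 11 (99385254 to 99389364, GRCm38). It measured 6672 CPM in control 1, 1973 in control 2, 4175 in knockout 1 and 1766 in knockout 2. Per kb of exon it was also the highest of the 47 genes, at a mean of 1725 CPM per kb. Its log2 fold change was -0.54 ± 0.61 (SE; edgeR adjusted p = 0.76). Krt77, a type II keratin of suprabasal cells (chromosome 15, 101858731 to 101869705), measured 4330.0 and 1224 CPM in the controls, with 2630.2 and 1146 CPM in the knockouts. Krt1, the type II partner of Krt10 (chromosome 15, 101845426 to 101850794), measured 2352 and 688 CPM in the controls, with 1547 and 545 CPM in the knockouts. In all 3 genes the groups overlapped, and each library numbered 1 was at least 2.30 times its partner. Krt2, of the upper layers, had the same library order at lower levels. Krt23 was also higher in each library numbered 1, by 1.72 times between the knockouts. Its knockout 2, at 27.1 CPM, lay above control 2, at 23.8 CPM. Krt80, a keratin found at desmosomes, varied less, at 597 and 422 CPM in the controls, with 516 and 458 CPM in the knockouts.

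Proteins of the cornified envelope followed the keratins, with exceptions. Lor (loricrin, the main envelope protein; chromosome 3, 92080271 to 92083142) measured 1284 and 319.8 CPM in the controls, with 684 and 257 CPM in the knockouts, a log2 fold change of -0.77 ± 0.69 (edgeR adjusted p = 0.695). Flg2, a filaggrin-like protein of keratohyalin granules, measured 190.0 and 54.7 CPM in the controls, with 84.6 and 44.9 CPM in the knockouts. Ivl (involucrin, an early scaffold of the envelope) measured 56.6 and 18.0 CPM in the controls, with 38.3 and 12.1 CPM in the knockouts. Control 1 stood above the other libraries for each, and control 2 lay within the range of the knockouts. Flg, filaggrin itself, had the most negative log2 fold change of the 46 tested, at -1.25 ± 0.62 (edgeR adjusted p = 0.51). It measured 10.2 and 3.93 CPM in the controls, with 4.27 and 1.58 CPM in the knockouts.

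Sprr1a and Rptn were the 2 members whose groups did not overlap, both with the knockouts higher. Sprr1a is a proline-rich cross-bridging protein of the envelope, and its promoter window above holds both motifs. It measured 5.38 and 2.84 CPM in the controls, with 7.21 and 16.2 CPM in the knockouts. Its log2 fold change was 1.53 ± 0.49 (edgeR unadjusted p = 0.019, adjusted p = 0.43), and knockout 2 held 339 of its counts against 90 in control 1. Rptn (repetin, an S100-fused envelope protein) had 4 and 3 counts in controls and 23 and 11 in knockouts. The log2 fold change of 2.30 ± 0.73 (edgeR adjusted p = 0.43) rests on few counts. Sprr1b, a near relative of Sprr1a, had 1 count in control 1 and 0 in the others, and was not tested. A count of 0 allows up to 3 counts, or 0.102 CPM in control 2 and 0.144 CPM in knockout 2.

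The remaining envelope genes, Hrnr, Cnfn, Lce1a1 and Lce1b, measured between 0.271 and 52.6 CPM. Each was highest in control 1. Lce1a1 and Lce1b belong to a family of genes with shared sequence. Of their 50-base stretches, 19.9% and 24.4% also occur in transcripts of other genes, where their counts are uncertain. For Gsdma the share was 8.26%, and no other member exceeded 6.96%.

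Secreted and calcium-binding proteins divided into genes that tracked the keratins and genes that did not. Dmkn (dermokine, secreted by stratified epithelia) measured 2214 and 1446 CPM in the controls, with 2173 and 1495 CPM in the knockouts, a log2 fold change of 0.0035 ± 0.26 (edgeR adjusted p = 0.995). Sbsn (suprabasin, another secreted protein) measured 1395 and 992 CPM in the controls, with 1301 and 909 CPM in the knockouts. Both were higher in the libraries numbered 1, by 1.41 to 1.53 times. Calml3, a calmodulin-like protein, measured 1033 and 1438 CPM in the controls, with 1216 and 819.7 CPM in the knockouts, and was the only one of the 46 genes lower in control 1 than in control 2. Calm4, a related calmodulin-like gene, was 3.15 times higher in control 1 than in control 2.

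Transglutaminases join the envelope proteins. Tgm1, the membrane-bound enzyme of the granular layer, measured 28.5 and 9.17 CPM in the controls, with 17.7 and 8.37 CPM in the knockouts (log2 fold change -0.52 ± 0.58, edgeR adjusted p = 0.75). Tgm3, which is also active in hair follicles, measured 10.6 and 4.09 CPM in the controls, with 4.87 and 6.27 CPM in the knockouts (-0.38 ± 0.47, adjusted p = 0.77). Tgm3 was thus higher in knockout 2 than in knockout 1, opposite to Tgm1.

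All 7 proteases, inhibitors and corneodesmosome genes were highest in control 1. Asprv1, an aspartic protease that processes profilaggrin, measured 233 and 68.8 CPM in the controls, with 142 and 50.2 CPM in the knockouts. Spink5, which encodes an inhibitor of the epidermal kallikreins, measured 191 and 66.8 CPM in the controls, with 138 and 87.0 CPM in the knockouts. Cdsn (corneodesmosin, an adhesive protein of the cornified layer) measured 118 and 35.3 CPM in the controls, with 83.2 and 43.5 CPM in the knockouts. Their log2 fold changes were -0.65 ± 0.66, -0.19 ± 0.48 and -0.27 ± 0.57 (edgeR adjusted p = 0.73, 0.89 and 0.87). Klk5, Klk7 and Klk8, serine proteases that take part in shedding of the surface, and Casp14, which acts on filaggrin, had the same library first, at 22.4 to 109.7 CPM in control 1.

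Among the 7 lipid barrier genes, Elovl4, an enzyme that makes very long fatty acids, measured 355 and 122 CPM in the controls, with 217 and 68.5 CPM in the knockouts (log2 fold change -0.74 ± 0.65, edgeR adjusted p = 0.68). Abca12, which loads lipids into lamellar bodies, measured 75.8 and 27.4 CPM in the controls, with 45.1 and 26.1 CPM in the knockouts. Cers3, a ceramide synthase, measured 46.8 and 35.2 CPM in the controls, with 38.6 and 37.3 CPM in the knockouts. Cers3 had the narrowest range of the 46 genes, 1.33-fold over the 4 libraries, whereas Elovl4 ranged 5.19-fold. Alox12b and Aloxe3 encode lipoxygenases that act in sequence on the same ceramide-bound lipid. Alox12b measured 18.6 and 5.55 CPM in knockouts 1 and 2, and Aloxe3 13.7 and 17.4 CPM, so their order differed between these libraries although both were highest in control 1. Nipal4 and Sult2b1 were also highest in control 1.

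The transcription factors among the genes were Grhl1, a regulator of desmosomal cadherins, and Grhl3, a regulator of barrier formation. Grhl1 measured 128 and 60.5 CPM in the controls, with 97.6 and 75.7 CPM in the knockouts (log2 fold change -0.12 ± 0.34, edgeR adjusted p = 0.91). Grhl3 measured 25.4 and 10.4 CPM in the controls, with 18.9 and 9.57 CPM in the knockouts (-0.32 ± 0.49, adjusted p = 0.82).

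Of the other enzymes and surface proteins, Hal (histidase, which makes urocanic acid) measured 176 and 52.2 CPM in the controls, with 105 and 45.7 CPM in the knockouts. Ggct, gamma-glutamylcyclotransferase, measured 52.7 and 20.2 CPM in the controls, with 37.2 and 21.4 CPM in the knockouts. Lypd3, a GPI-anchored surface protein, differed from both. It measured 144 and 75.7 CPM in the controls, with 142 and 168 CPM in the knockouts, a log2 fold change of 0.50 ± 0.29 (edgeR adjusted p = 0.56), with knockout 2 highest. Gsdma, Gdpd2, Anxa9 and Skint5 were each highest in control 1, at 18.7 to 60.0 CPM there. Anxa9 (910 counts in all) shares exon sequence on the opposite strand with Mindy1 (10905 counts). No source used here states the strand setting of the counting, so it is unknown whether reads of the shared sequence were told apart. The length of that sequence was not measured.

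The levels were next set against Krt10 within each library, a reference chosen after the values were seen. Krt77 measured 64.9% and 62.0% of Krt10 in controls and 63.0% and 64.9% in knockouts. Hal measured 2.63% and 2.65% of Krt10 in controls and 2.51% and 2.59% in knockouts. Both genes ranged 1.05-fold on this scale, while as CPM they ranged 3.78-fold and 3.84-fold. Tgm1 ranged 1.12-fold, Gdpd2 1.13-fold and Krt1 1.20-fold relative to Krt10. In all, 24 of the other 45 tested members (53.3%) stayed within 1.5-fold of a constant ratio to Krt10, against 105 of 14213 tested genes that are not members (0.739%). Just inside this bound lay Krt23 at 1.46-fold, and just outside it Calm4 at 1.53-fold. Lor fell within it but was not flat, at 19.2% and 16.2% of Krt10 in controls and 16.4% and 14.5% in knockouts.

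A ratio that moved 2-fold or more was found for 13 members. Sprr1a ranged 11.4-fold relative to Krt10, from 0.0807% in control 1 to 0.918% in knockout 2. Calml3 ranged 4.71-fold, from 15.5% in control 1 to 72.9% in control 2. Dmkn ran from 33.2% in control 1 to 84.6% in knockout 2, and Sbsn from 20.9% to 51.5% in the same libraries. For Dmkn, Sbsn, Krt80, Cers3, Calml3, Lypd3, Grhl1, Tgm3 and Sprr1a the ratio spread more widely than the CPM themselves.

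**Figure D4:**
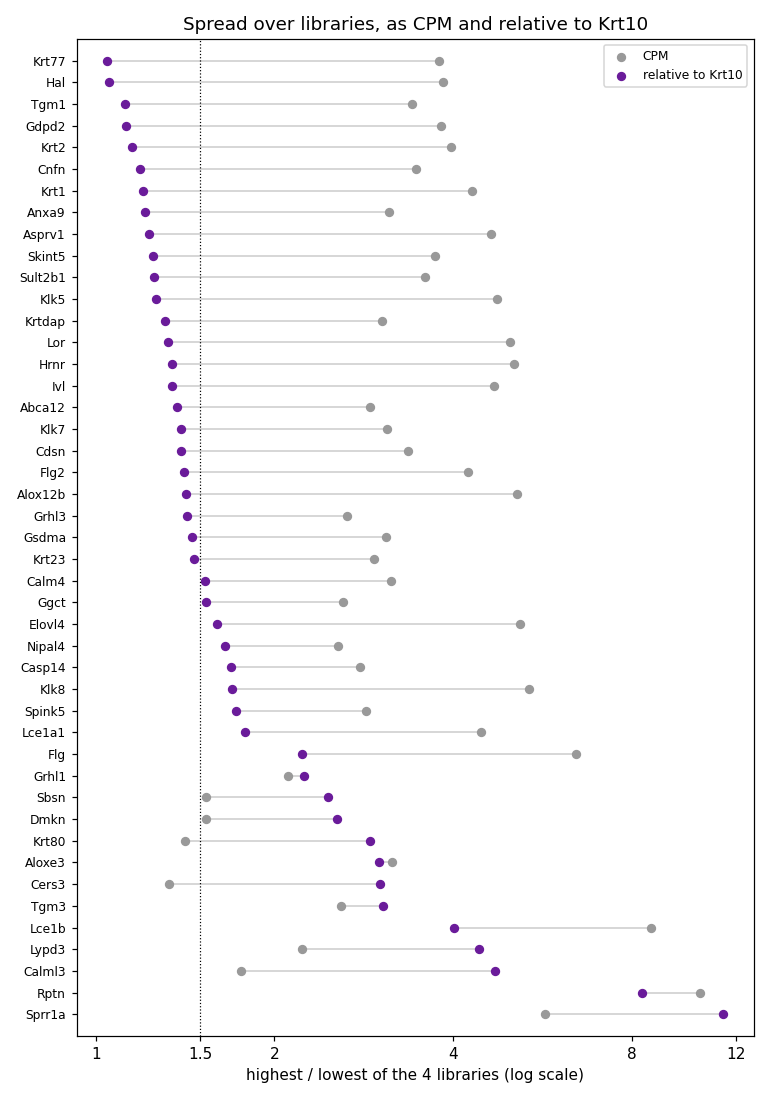
Highest divided by lowest of the 4 libraries (log-scaled x axis) for each tested gene other than Krt10, as CPM (grey) and relative to Krt10 in the same library (purple); the dotted line marks 1.5-fold. The 24 genes left of the line include Krt77 and Hal at 1.05-fold, and Sprr1a lies farthest right at 11.4-fold.

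Neighbouring genes did not always share a pattern. The 47 genes lie on 16 chromosomes, and 10 of them, Lor, Sprr1b, Sprr1a, Ivl, Lce1a1, Lce1b, Flg2, Flg, Hrnr and Rptn, lie within 1319 kb of chromosome 3 (92080271 to 93399442, GRCm38), the epidermal differentiation complex. Of these, Sprr1a and Rptn were higher in both knockouts, while Lor, Ivl, Flg, Flg2 and Hrnr were highest in control 1. Sbsn, Dmkn and Krtdap, which encodes a secreted peptide, lie within 39.6 kb of chromosome 7 (30751471 to 30791097). Krtdap was 3.04 times higher in control 1 than in control 2, against 1.41 times for Sbsn and 1.53 times for Dmkn. Calml3 and Calm4 lie within 35.8 kb of chromosome 13, and the fold between controls was 0.718 and 3.15. These neighbours were chosen after their values were seen, and no test was made of the differences between genes.

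A wider list of 98 other epidermal differentiation genes held 82 with a count and 59 that were tested. None passed the edgeR test. At an unadjusted p under 0.05, 2 were higher (4.8% of all tested genes) and 2 lower (5.94%), so neither count exceeded the share over all genes. Below 0 were 38 of 59 (52.5% of all tested genes), with a median log2 fold change of -0.24. Relative to Krt10, 16 of the 59 stayed within 1.5-fold. Tgm5, a transglutaminase, measured 875 and 1024 CPM in the controls, with 632 and 473 CPM in the knockouts (log2 fold change -0.78 ± 0.18, edgeR adjusted p = 0.43; DESeq2 adjusted p = 0.044). Cst6, a protease inhibitor, measured 137 and 85.5 CPM in the controls, with 171 and 239 CPM in the knockouts (0.88 ± 0.26, edgeR adjusted p = 0.43). Klk10 and Padi4 had log2 fold changes of 0.76 ± 0.29 and -2.31 ± 0.68 (edgeR adjusted p = 0.44 and 0.43), the latter at 0.0918 to 0.897 CPM.

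Markers of other cell types were set beside these levels. The 15 sebaceous gland markers, all tested, summed to 1049 and 578 CPM in the controls, with 652 and 443 CPM in the knockouts. All 15 were highest in control 1, as 42 of the 46 differentiation genes were, and 14 of 15 were higher in number 1 in both groups (23.8% of all tested genes). Scd1, a desaturase of sebaceous lipid, measured 318 and 124 CPM in the controls, with 182 and 121 CPM in the knockouts. Of the 15, 3 stayed within 1.5-fold relative to Krt10. Bulge markers summed to 37105 and 45258 CPM in the controls, with 44156 and 43031 CPM in the knockouts, lowest in control 1. Krt15 made up most of this sum in each library. The median bulge marker, as log2 CPM minus its mean over the 4 libraries, was lowest in knockout 1, at -0.12, against -0.073 in control 1. Basal keratinocyte markers summed to 40598 and 45341 CPM in the controls, with 48180.4 and 41642 CPM in the knockouts. The part of these other cell types in the differentiation gene levels was not tested.

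Upper follicle and infundibulum markers had another order, with 1883 and 1533 CPM in the controls, with 2031 and 2419 CPM in the knockouts. All 8 were tested and had a log2 fold change above 0 (47.5% of all tested genes). At an unadjusted edgeR p under 0.05, 3 were higher (4.8%). One of these, Cst6, is also in the list of other differentiation genes. All 8 were higher in control 1 than in control 2, against 7113 of all 14259 tested genes. Knockout 1 was the higher knockout for 7109 of all tested genes. Of the 8, 7 were higher in knockout 2 than in knockout 1. The differentiation genes that were also higher in knockout 2 than in knockout 1 were Sprr1a, Tgm3, Aloxe3 and Lypd3. Of these, Tgm3 and Aloxe3 were highest in control 1. Inner root sheath markers summed to 144 and 105 CPM in the controls, with 101 and 117 CPM in the knockouts, and their keratins were each under 5 CPM. Gata3 made up most of this sum, at 128 and 89.3 CPM in the controls, with 87.7 and 95.1 CPM in the knockouts.

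**Figure D5:**
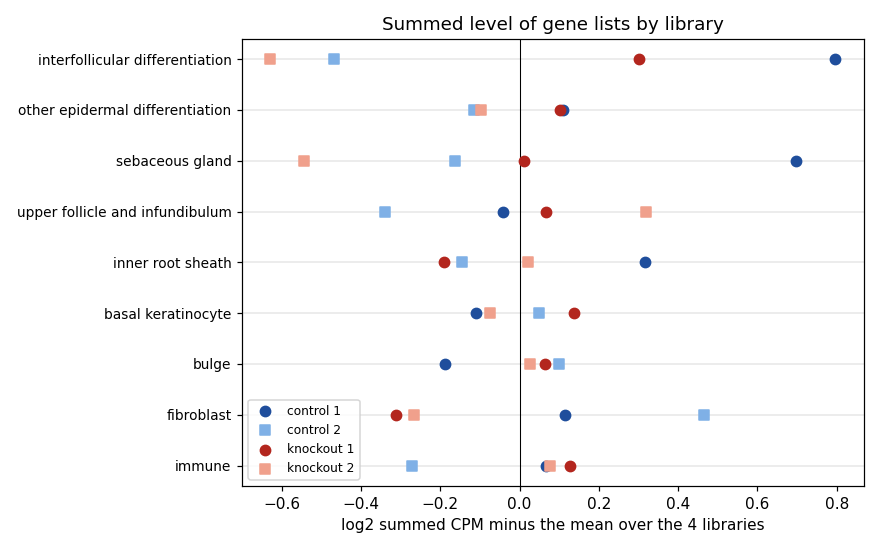
Log2 of the summed CPM of each gene list in each library (x axis, minus the mean over the 4 libraries; circles number 1, squares number 2, blue controls, red knockouts). The differentiation and sebaceous gland lists are highest in control 1 and lowest in knockout 2. The summed bulge list, most of it Krt15, is lowest in control 1. Gata3 holds most of the inner root sheath sum, Col1a1 and Col1a2 most of the fibroblast sum and Cd74 most of the immune sum.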

How the data were processed

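RNA of bulge cells was sequenced from 2 knockout and 2 control samples, per the labels, after polyA selection in directional libraries. The deposited table holds whole-number counts for each gene, unnormalized, per the labels. Per the submitters' processing notes, Trim Galore 0.6.0, cutadapt, FastQC, STAR 2.7.0e and DESeq2 1.26.0 were used with GRCm38 (mm10). How reads were counted, with which strand setting and annotation, is not stated in the sources used here. All 55536 identifiers matched GENCODE M21.

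Counts were analysed in R 4.3.3. Genes were kept by filterByExpr of edgeR 4.0.16 and scaled by TMM, and the groups were compared by its quasi-likelihood test (robust, no covariates) with Benjamini-Hochberg adjustment over all 14259 tested genes at 0.05. The biological coefficient of variation was 19.2%. Errors are SD over 2 libraries or an SE. The SE is the size of the log2 fold change divided by the square root of the test's F statistic. It thus restates that test and is no separate measure of precision. Log2 CPM had a prior count of 2. Depth was 16326906 to 29130974 counts. The scripts were tested on simulated data. DESeq2 1.42.0, limma 3.58.1 (voom), other scalings and filters, an exon length and GC offset, the replicate number as a block and leaving out each library were alternatives.

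In each of 8 role groups the 3 members of highest mean CPM were named, with any of unadjusted p under 0.05. Any further member named was picked with its values in view. Of the other differentiation list, those with unadjusted p under 0.05 were named. The members and lists were chosen with earlier results of these data known, so no set test or adjustment over a list was made.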

Additional observations from a re-analysis of the deposited data

How the results depend on the processing

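Called genes over the whole table numbered 1 in the main edgeR test, 430 without a count filter, 80 with DESeq2, 106 with the replicate number as a block and 2 after removal of the exon length and GC trend. Leaving out each library gave 1 to 65, highest without knockout 1. Of the differentiation genes, 0 were called in the main test, 2 without a count filter (Sprr1a, log2 fold change 1.52, adjusted p = 0.00014, and Flg, -1.25, adjusted p = 0.027) and 1 with the replicate number as a block (Elovl4, -0.77, adjusted p = 0.023). In these 2 fits 430 of 24037 and 106 of 14259 genes were called in all. The other differentiation list had 0 called, 4 without a count filter, 1 with DESeq2 and 1 with the block, and Tgm5 was called in all 3. No member or other listed gene was called when a library was left out, where the lone library of a group is assumed to vary like the others. The labels do not give the numbers as a pairing, and the differences between numbers 1 and 2 in the 2 groups had a Pearson correlation of 0.12 and a Spearman correlation of 0.00012 over all tested genes.

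The median log2 fold change of the differentiation genes was -0.36, from -0.40 to -0.15 over the alternatives that keep all 4 libraries, and -0.15 with voom. Leaving out each library gave -0.94 to 0.56. For single genes named, the sign turned in 19 of 24 without control 1, 8 without knockout 2, 2 without control 2 and 1 without knockout 1. The lowest and highest log2 fold changes with a library left out were Krt10 -1.29 to 0.59, Krt77 -1.28 to 0.63, Krt1 -1.48 to 0.61, Lor -1.64 to 0.56, Flg2 -1.53 to 0.24, Ivl -1.62 to 0.48, Dmkn -0.29 to 0.34, Sbsn -0.40 to 0.16, Calml3 -0.60 to 0.0017, Tgm1 -1.16 to 0.51, Tgm3 -0.90 to 0.44. The range was Asprv1 -1.58 to 0.49, Spink5 -0.74 to 0.75, Cdsn -0.88 to 0.85, Elovl4 -1.80 to 0.22, Abca12 -1.07 to 0.38, Cers3 -0.28 to 0.11, Grhl1 -0.54 to 0.52, Grhl3 -0.89 to 0.45, Hal -1.31 to 0.53, Ggct -0.82 to 0.54. The fold change stayed above 0 for Sprr1a, at 0.83 without knockout 2 to 2.04 without control 1, for Rptn, at 1.71 without knockout 1 to 2.90 without control 1, and for Lypd3, at 0.13 without control 2 to 1.04 without control 1. Dmkn, near 0, gave -0.0014 without a count filter and -0.0085 with at least 50 counts in 2 libraries. The median centred log2 CPM over all 47 genes was 0.94 and -0.61 in controls and 0.38 and -0.58 in knockouts, and other scalings, prior counts or a mean kept each on its side of 0. With Krt1 in place of Krt10 as reference, an alternative chosen after seeing the data, 18 of 45 genes stayed within 1.5-fold, against 24. With 2 libraries per group, 1 outlying library could not be tested for.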

Other observations

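Genes outside the lists also kept a near-constant ratio to Krt10. The 10475 tested genes that are not members and had a mean of at least 5 CPM were ranked by the range of this ratio over the 4 libraries, a ranking chosen after the data were seen. Of the first 40, 10 belonged to the list of other epidermal differentiation genes and 1 to the sebaceous markers (Elovl3). The remaining genes of the 40 are outside the lists used here, which does not show that they are not epidermal. The first-ranked, 2310050C09Rik, ranged 1.08-fold. It lies on chromosome 3 (92868359 to 92870216), within the span given above for the epidermal differentiation complex. Xkrx ranged 1.09-fold, Paqr5 1.11-fold and Wfdc5 1.14-fold. Mt4, a metallothionein of stratified epithelia, measured 40.8 and 10.8 CPM in the controls, with 25.5 and 10.8 CPM in the knockouts, and its ratio ranged 1.12-fold. Kctd12 measured 83.8 and 26.5 CPM in the controls, with 49.1 and 22.0 CPM in the knockouts (1.14-fold). Acer1, an alkaline ceramidase, ranged 1.27-fold, and Wnt3, a secreted WNT ligand, 1.28-fold, at 27.0 and 9.10 CPM in the controls, with 18.5 and 9.14 CPM in the knockouts. These are descriptions of 4 libraries with no test.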
